A study of Homo sapiens with 6 samples.

Results

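The expression of 10 genes that mark differentiated cells of the colon lining, chosen by symbol, was followed in DLD-1 cells after a control siRNA or an siRNA against the long non-coding RNA lncSLCC1. They were CEACAM5, CEACAM6, LGALS4, VIL1, MUC13, TFF3, GPA33, CDH17, REG4 and AGR2, and all 10 were found among the 56638 symbols of the count tables. DLD-1 is an established human colorectal cancer line grown in serum-containing medium, and each group held 3 libraries of total RNA. Both groups are cells of this 1 line that went through an siRNA transfection, so the groups differ by label only in which siRNA was used. The time after transfection and the siRNA design are not given in the labels. Nothing states that the 3 libraries of a group are separate cultures; a p-value here therefore reflects the spread among these libraries, possibly technical. Levels are given in CPM, the reads of a gene per 1000000 gene reads of its library, with each library's total scaled by its TMM factor.

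The colon lining is renewed from stem cells at the crypt base. Their daughters become absorptive colonocytes, which carry a brush border of microvilli, or goblet cells, which secrete mucus and trefoil peptides. The 10 genes cover the surface of colonocytes (CEACAM5, CEACAM6, GPA33, CDH17 and the transmembrane mucin MUC13), the brush border and apical sorting (VIL1, LGALS4), and the secretory lineage (AGR2, TFF3, REG4). Tumour lines keep such genes to very different degrees.

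Gene reads ran from 12572277 to 15568075 per library. The targeted RNA, listed as RP11-400N13.2, was at 5.19 to 9.29 CPM in controls and at 1.66 to 2.61 CPM after lncSLCC1 siRNA. Its mean was 27.1% of the control mean (edgeR adjusted p = 0.0027 for a log2 fold change of -1.88), with groups that did not overlap. Control libraries were more scattered than lncSLCC1 siRNA libraries: the chi-square statistic per gene between 2 libraries of a group was 5.91 to 30.6 among controls, with control replicate 1 in both of the larger values, and 1.86 to 1.99 among lncSLCC1 siRNA libraries.

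Of the markers, 3 were higher after lncSLCC1 siRNA: the brush border gene VIL1 by 1.83-fold, the transmembrane mucin gene MUC13 by 1.43-fold and the secretory chaperone gene AGR2 by 1.35-fold. None of the 7 tested was lower in edgeR's test, also at an unadjusted p under 0.05, or by DESeq2 or limma-voom. CDH17, LGALS4, TFF3 and REG4 did not pass it, and CEACAM5, CEACAM6 and GPA33 had too few reads to be tested. Calls are adjusted p under 0.05 in edgeR's quasi-likelihood test over all 15242 tested genes, of which 13.8% were called, 6.46% higher and 7.39% lower. The markers were named with results of these data already known, so their count beside that background is a description. With library totals in place of TMM scaling the split of all calls moved from 46.6% to 63.7% higher, and CDH17 joined the 3.

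**Figure D1:**
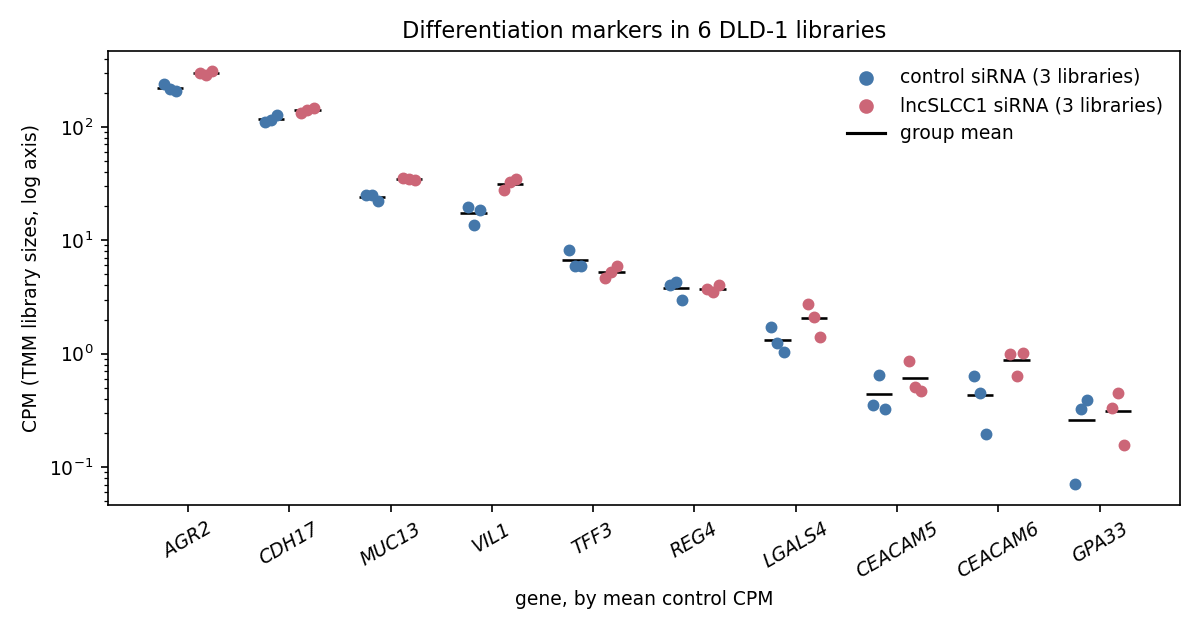
CPM (TMM library sizes, log axis) of the 10 markers in each library, ordered by mean control level; points are the 3 control siRNA and 3 lncSLCC1 siRNA libraries and lines are group means. AGR2 at 208 to 308 CPM and CDH17 at 111 to 146 CPM lie far above CEACAM5, CEACAM6 and GPA33, which are at or below 1.01 CPM in every library.

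Many of the other genes looked up for differentiated colonocytes and goblet cells had few reads in these cells. Of 33 absorptive colonocyte genes looked up, 21 had too few reads to be tested and 6 had 0 reads in all 6 libraries, among them FABP1, GUCA2B, MS4A12 and CEACAM7. Of 28 goblet and secretory genes, 12 had too few reads; the secreted mucin gene MUC2 had at most 7 reads in a library and CLCA1 had 0 in all. ATOH1, the transcription factor of the secretory lineage, also had 0 reads in all libraries. Epithelial markers were present, with all 10 tested and a summed level of 6065 to 7604 CPM in controls and 6154 to 6494 CPM after lncSLCC1 siRNA. Of the 10, only the tight junction gene CLDN4 was called lower, at 299 ± 44.8 and 210.3 ± 6.79 CPM (SD, n = 3 each; edgeR adjusted p = 0.0144), a call lost without control replicate 2 and without each lncSLCC1 siRNA library. Markers of other cell types were scarce: 8 fibroblast genes together held 2.21 to 2.73 CPM in controls and 3.05 to 3.27 CPM after lncSLCC1 siRNA, 9 immune genes 1.99 to 2.34 and 1.40 to 2.02 CPM, and 5 endothelial genes 1.30 to 2.42 and 1.56 to 2.23 CPM. The defining genes DCN, LUM, PDGFRA, CD3D, PECAM1 and KDR had 0 reads in every library. The fibroblast sums did not overlap between groups. Of 2 tested fibroblast genes 1 was called higher, PDGFRB, at 0.532 ± 0.159 and 1.32 ± 0.393 CPM (SD, n = 3 each; adjusted p = 0.0448 by edgeR). It had 6, 7 and 11 reads in controls and was called in 7 of the 12 settings that gave it an adjusted p. The part of the fibroblast genes in the results below was not tested. In bulk RNA, more cells that express a gene and more RNA per cell cannot be told apart.

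Per kilobase of the principal GENCODE 29 transcript, the control levels of the markers ran from 0.0935 to 124 CPM. AGR2 was highest at 124 ± 8.72 CPM per kb (SD, n = 3), then CDH17 at 31.7 ± 2.31, MUC13 at 8.39 ± 0.589 and TFF3 at 6.07 ± 1.18 CPM per kb. VIL1 at 2.64 ± 0.465 and REG4 at 2.49 ± 0.456 CPM per kb overlapped. LGALS4 followed at 0.864 ± 0.223 CPM per kb. CEACAM6 at 0.159 ± 0.0827, CEACAM5 at 0.154 ± 0.0624 and GPA33 at 0.0935 ± 0.0601 CPM per kb were lowest, and their libraries overlapped. After lncSLCC1 siRNA, VIL1 reached 4.82 ± 0.538 CPM per kb, the level of TFF3 at 4.76 ± 0.572, and no longer overlapped REG4 at 2.47 ± 0.179 CPM per kb. The transcript used in these cells may be shorter than the annotated one, which is 6531 bases for VIL1.

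VIL1 encodes villin, which bundles and severs the actin filaments that form the core of microvilli. The control libraries, in the order of their replicate numbers, held 19.5, 13.8 and 18.4 CPM of it, and the lncSLCC1 siRNA libraries held 27.7, 32.3 and 34.5 CPM. Every lncSLCC1 siRNA library lay above every control, and control replicate 2 was the lowest of the 6. The mean rose from 17.2 ± 3.04 to 31.5 ± 3.51 CPM (SD, n = 3 each), or by 0.87 on the log2 scale (SE 0.147), with a 95% confidence interval of 0.54 to 1.199 and an edgeR adjusted p of 0.00618. The call held in all 14 alternative settings, with log2 fold changes of 0.73 to 0.96. In GENCODE 29 an exon of VIL1 overlaps an exon of USP37 on the opposite strand, and the strand setting of the counting is not given. USP37, a deubiquitinase gene, was at 10.9, 16.8 and 22.2 CPM in controls and 21.4, 20.1 and 19.3 CPM after lncSLCC1 siRNA, and it was not called (edgeR adjusted p = 0.388, with a log2 fold change of 0.28 and an SE of 0.21). No other marker had an exon shared with a gene that the count tables list.

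Of the 8 villin and gelsolin family genes, which cap, sever or bundle actin, all were tested. VIL1 and AVIL, which encodes advillin, rose, and 6 did not pass the test (family median log2 fold change 0.18, against 0.0072 over all tested genes). Of all tested genes 6.46% were called higher. AVIL, also a tuft cell marker, rose from 9.51 ± 0.5 to 19.4 ± 1.77 CPM (SD, n = 3 each; edgeR adjusted p = 0.000928), or by 1.03 on the log2 scale with an SE of 0.12. Its call held in all 14 settings too. CAPG, SVIL and SCIN stood at log2 fold changes of 0.23, 0.15 and 0.21, with overlapping groups.

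LGALS4 encodes galectin-4, a lectin that binds glycolipids of the apical membrane and takes part in sorting proteins to it. Its level was low, with 24, 19 and 16 reads in controls and 41, 33 and 18 reads after lncSLCC1 siRNA, or 1.71, 1.23 and 1.04 against 2.72, 2.10 and 1.40 CPM. The groups overlapped, because lncSLCC1 siRNA replicate 3 lay below control replicate 1. The log2 fold change of 0.67 had an SE of 0.301 and a 95% confidence interval from -0.0056 to 1.34, and did not pass the test (adjusted p = 0.161 by edgeR). It passed without control replicate 1 (log2 fold change 0.88, adjusted p = 0.0455), the one setting of 14 that called it. The galectin list held 6 tested genes, among them LGALS3BP, which encodes a galectin-binding protein. Of these, LGALS1 rose, from 4.09 ± 0.473 to 6.42 ± 0.384 CPM (SD, n = 3 each; adjusted p = 0.0222 by edgeR). Its call, too, was lost when control replicate 2 or any lncSLCC1 siRNA library was left out. LGALS3, the most abundant galectin gene by CPM, stood at 459 ± 39.7 and 455 ± 9.92 CPM.

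The group means of VIL1, MUC13 and AGR2 differed by more than the spread between replicates, as the plot of fold changes shows.

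**Figure D2:**
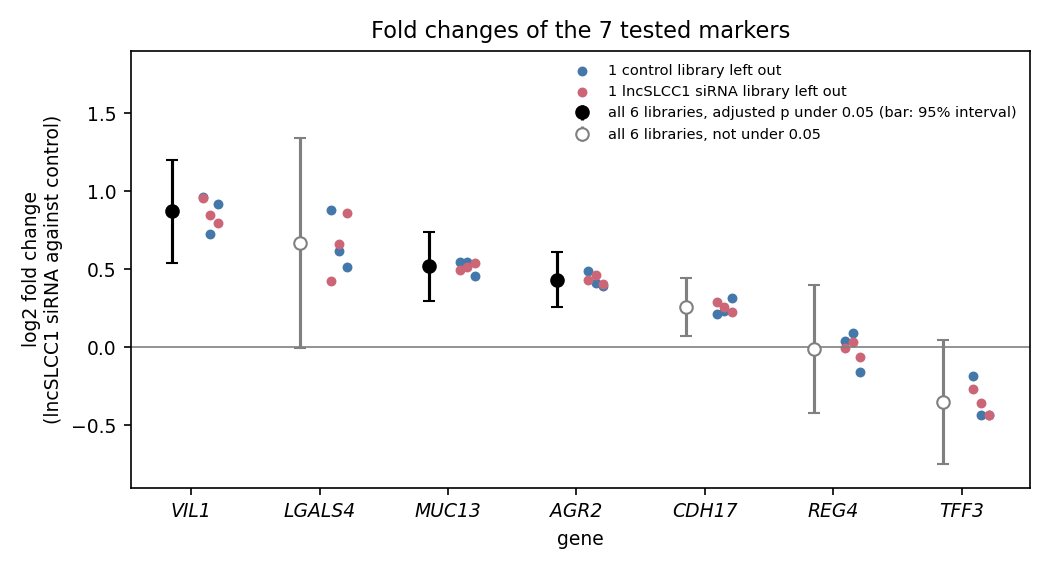
Log2 fold changes of the 7 tested markers (lncSLCC1 siRNA against control siRNA); large points with 95% confidence intervals use all 6 libraries, filled where the adjusted p is under 0.05, and small points leave out 1 library each. VIL1, MUC13 and AGR2 lie at 0.87, 0.52 and 0.43, REG4 lies at -0.01, and TFF3 lies at -0.35 with an interval that reaches 0.04.

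MUC13 encodes a cell-surface mucin of the intestinal glycocalyx. It stood at 25.1, 25.2 and 22.2 CPM in controls and at 35.5, 34.7 and 33.7 CPM after lncSLCC1 siRNA, so the groups lay apart and each was tight. The mean rose from 24.2 ± 1.69 to 34.6 ± 0.932 CPM (SD, n = 3 each). The edgeR adjusted p was 0.0102, for a log2 fold change of 0.52 with an SE of 0.099 and a 95% confidence interval from 0.30 to 0.74. The call was lost without lncSLCC1 siRNA replicate 1, 2 or 3 (adjusted p = 0.0669, 0.0675 and 0.0574) and held in the other 11 settings; log2 fold changes over the 14 were 0.46 to 0.59.

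Of 14 mucin genes, 8 had too few reads to be tested, MUC2 among them. Of the 6 tested, MUC13, MUC20 and MUC4 were called higher and MUC1, MUC5AC and MUC6 did not pass (median log2 fold change 0.41, against 0.0072 over all tested genes). Of all tested genes 6.46% were called higher. MUC20, another transmembrane mucin gene, went up from 22.1 ± 1.81 to 32.01 ± 1.52 CPM (SD, n = 3 each; edgeR adjusted p = 0.0113), 0.54 on the log2 scale. MUC4 was near the limit of testing, at 0.441 ± 0.136 and 1.15 ± 0.364 CPM (adjusted p = 0.0459 by edgeR), and was called in 6 of the 12 settings that gave it an adjusted p. It lost its call by limma-voom and without any library but control replicate 3, DESeq2 gave no adjusted p, and it did not reach a mean of 1 CPM. Every control lay under the filter cutoff of about 0.664 CPM, so MUC4 was tested only through the group where it was higher. Selected in this way, its call is no separate support for a rise. With a mean of at least 1 CPM as filter, 2 of the 5 mucin genes left were called higher (median log2 fold change 0.30). In that setting 6.98% of all tested genes were called higher. MUC20 lost its call without control replicate 2 and without each lncSLCC1 siRNA library. MUC5AC, a gel-forming mucin of the stomach and airway, was the mucin gene with the most CPM, at 73.9 ± 2.32 and 87.5 ± 5.08 CPM (edgeR adjusted p = 0.0763 for a log2 fold change of 0.24).

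AGR2 encodes a protein disulfide isomerase of the endoplasmic reticulum that goblet cells need to fold and secrete mucin. It was the most abundant of the 10 markers, at 238, 215 and 208 CPM in controls and 298, 286 and 308 CPM after lncSLCC1 siRNA. Each lncSLCC1 siRNA library held more AGR2 than any control, and these values rest on 3201 to 4500 reads per library. The mean rose from 220.2 ± 15.5 to 298 ± 11.2 CPM (SD, n = 3 each). On the log2 scale this is 0.43 with an SE of 0.0793, a 95% confidence interval from 0.26 to 0.61 and an edgeR adjusted p of 0.00837. Leaving out control replicate 2 raised the adjusted p to 0.057 and ended the call, as did leaving out lncSLCC1 siRNA replicate 1 (0.058) or 3 (0.0687), and the call held in the other 11 settings.

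Of 13 tested members of the family, AGR2 alone rose, PDIA4 and TXNDC12 fell, and 10 did not pass (median log2 fold change -0.09, against 0.0072 over all tested genes). Among all tested genes 6.46% were called higher and 7.39% lower. PDIA4 fell from 372 ± 39.9 to 209 ± 5.60 CPM (SD, n = 3 each; edgeR adjusted p = 0.000603), a log2 fold change of -0.83 with an SE of 0.089. TXNDC12, a thioredoxin-domain gene of the same compartment, fell from 64.1 ± 3.39 to 40.4 ± 1.38 CPM (edgeR adjusted p = 0.00203 for a log2 fold change of -0.66). AGR3, the closest relative of AGR2, had 1 read over all 6 libraries.

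TFF3 encodes the trefoil peptide that goblet cells secrete with mucus, and it was the marker with the most negative fold change. It stood at 8.24, 5.98 and 5.98 CPM in controls and 4.64, 5.29 and 5.91 CPM after lncSLCC1 siRNA. The groups did not overlap, yet lncSLCC1 siRNA replicate 3 lay just under control replicates 2 and 3. The log2 fold change of -0.35, with an SE of 0.177 and a 95% confidence interval from -0.74 to 0.04, did not pass the test (adjusted p = 0.203 by edgeR), and it was -0.44 to -0.19 over the 14 settings, none of which called it. Control replicate 1 weighed most: without it the log2 fold change was -0.19. Relative to AGR2 within a library, a ratio that no scaling can alter, there were 3.47, 2.78 and 2.87 TFF3 reads per 100 AGR2 reads in controls and 1.56, 1.85 and 1.92 after lncSLCC1 siRNA. The ratio was lower in all 3 lncSLCC1 siRNA libraries than in any control. That had to be so, because TFF3 was lower and AGR2 higher in each of them, so it is no separate sign of a fall in TFF3. It was computed after the values of both genes were seen. Its exact permutation p of 0.1 is the smallest possible with 3 libraries against 3.

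REG4 encodes a secreted lectin of the REG family found in goblet and endocrine cells. It stood at 4.05, 4.29 and 2.99 CPM in controls and 3.71, 3.51 and 4.04 CPM after lncSLCC1 siRNA, with overlapping groups. Its fold change was -0.01 on the log2 scale with an SE of 0.185 (edgeR adjusted p = 0.978), positive in 6 of the 14 settings, and its 95% confidence interval from -0.42 to 0.40 leaves differences up to about those sizes undetected. Of the 8 REG and trefoil genes only REG4, TFF1 and TFF3 could be tested, and 0 passed, also at an unadjusted p under 0.05. TFF1 stood at 4.51 ± 0.983 and 4.04 ± 0.19 CPM (SD, n = 3 each).

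CDH17 encodes a cadherin of the intestinal epithelium that joins neighbouring cells. It stood at 111, 114 and 127 CPM in controls and 134, 139.98 and 146 CPM after lncSLCC1 siRNA. All lncSLCC1 siRNA libraries lay above all controls, but the gap was narrow, at 127 against 134 CPM. The log2 fold change of 0.26, with an SE of 0.0838 and a 95% confidence interval from 0.07 to 0.44, missed the threshold (adjusted p = 0.0673 by edgeR). It passed in 4 of 14 settings: with library totals (0.0382), with GC content and length offsets (0.0131), and without control replicate 1 (0.0127) or 3 (0.0206). In those settings 9.45%, 13.4%, 13.5% and 10.3% of all tested genes were called higher. Of 8 tested genes of the intestinal cadherin superfamily, CDHR5, which encodes a protocadherin that links microvilli, rose, and 0 fell. In the same fit over all 6 libraries, 6.46% of all tested genes were called higher and 7.39% lower. CDHR5 was low, at 1.26 ± 0.367 and 2.29 ± 0.0394 CPM (adjusted p = 0.0477 by edgeR), and lost its call in 7 of 14 settings. CDH1, the E-cadherin gene, stood at 553 ± 29.7 and 649 ± 7.74 CPM (log2 fold change 0.23, adjusted p = 0.0619 by edgeR).

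VIL1, MUC13, AGR2 and CDH17 were thus higher in all 3 lncSLCC1 siRNA libraries than in any control, as were 19.4% of all tested genes, and TFF3 was lower in all 3, as were 19.6%. Within the lncSLCC1 siRNA group the markers did not share an order: replicate 3 was the highest library for VIL1, CDH17, AGR2, TFF3 and REG4 and the lowest for MUC13 and LGALS4. Among all tested genes, 6.53% were called higher with DESeq2 size factors, 5.33% with no low-count filter, 6.98% with a mean of at least 1 CPM as filter, 6.51% with a replicate block, 6.40% by DESeq2 and 6.34% by limma-voom. Leaving out control replicate 2 gave 1.69%, and leaving out 1 of the lncSLCC1 siRNA libraries gave 1.75%, 1.43% and 1.37%, in replicate order. The shares called lower, a side on which no setting called a marker, were 7.54%, 5.57%, 7.70%, 6.95%, 8.12% and 6.87% for the first 6 of these settings, 5.39% with library totals and 16.8% with GC content and length offsets. Leaving out each control in turn, in replicate order, they were 15.5%, 2.26% and 13.4%, and for the lncSLCC1 siRNA libraries they were 2.04%, 1.60% and 1.56%.

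**Figure D3:**
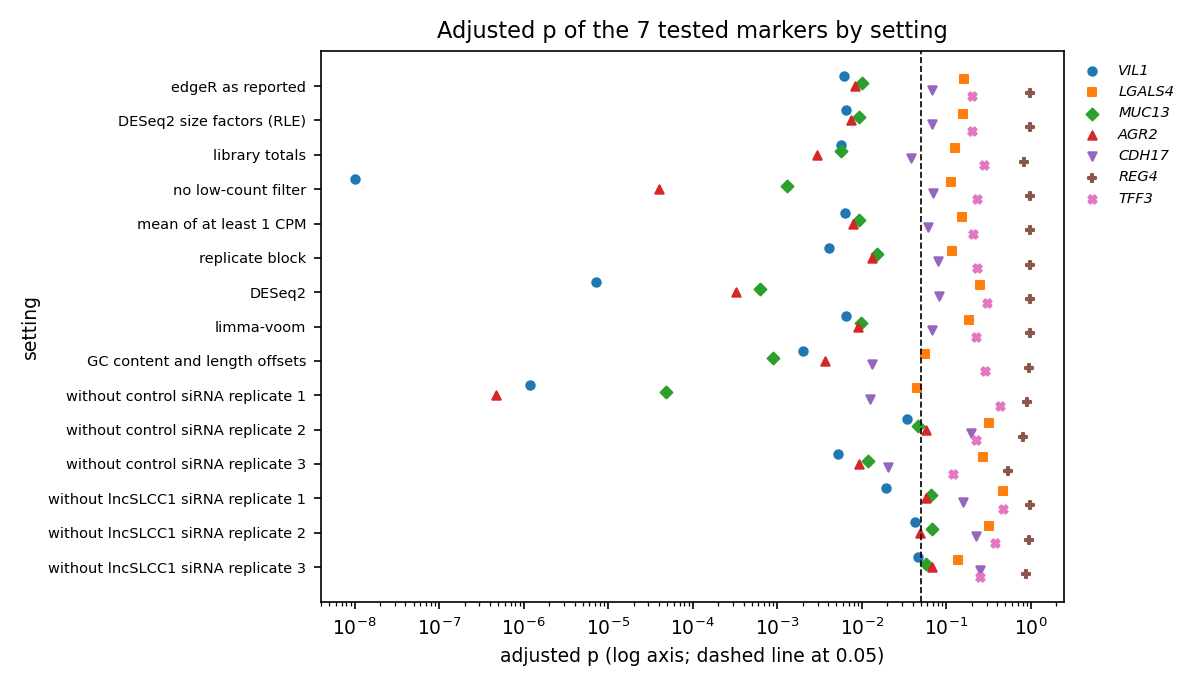
Adjusted p of the 7 tested markers (log axis, dashed line at 0.05) as reported and in each of the 14 alternative settings. VIL1 stays left of the line in every setting, MUC13 and AGR2 in 11 of 14 each, CDH17 in 4, LGALS4 in 1, and TFF3 and REG4 in 0.

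CEACAM5 encodes carcinoembryonic antigen, an adhesion protein of the colonocyte surface used as a tumour marker, and CEACAM6 encodes a close relative anchored in the same way. Both were barely expressed in these cells. CEACAM5 had 5, 10 and 5 reads in controls and 13, 8 and 6 after lncSLCC1 siRNA, and CEACAM6 had 9, 7 and 3 against 15, 10 and 13. All lncSLCC1 siRNA libraries held more CEACAM6 reads than any control, but in CPM the groups met, at 0.64 in control replicate 1 and 0.64 in lncSLCC1 siRNA replicate 2. Summed over libraries, the ratio of lncSLCC1 siRNA to control per TMM-scaled read total was 1.39 for CEACAM5 (exact 95% interval 0.75 to 2.61) and 2.06 for CEACAM6 (1.16 to 3.78); these intervals cover counting error only, not the spread between libraries. With no low-count filter, edgeR gave CEACAM6 a log2 fold change of 1.03 with an adjusted p of 0.153, and CEACAM5 0.46 with 0.61. With any 1 library left out CEACAM6 passed the low-count filter, which then asks for fewer libraries. Every control lay under its cutoff of about 0.664 CPM, so CEACAM6 passed only through the group where it was higher. It was called without control replicate 1 (log2 fold change 1.40, adjusted p = 0.0428 by edgeR) and not in the other 5 such fits (adjusted p from 0.184 to 0.316). Selected in this way, the call is no separate support for a rise. Both genes have close paralogs, so their counts are uncertain where reads matched more than 1 copy. Of the 12 CEACAM genes only CEACAM19 was tested, at 7.53 ± 1.49 and 8.14 ± 0.573 CPM (SD, n = 3 each; adjusted p = 0.664 by edgeR), and 5 had 0 reads in all libraries.

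GPA33 encodes the A33 antigen, an immunoglobulin-family protein of the intestinal surface. It had 1, 5 and 6 reads in controls and 5, 7 and 2 after lncSLCC1 siRNA, with overlapping groups. The ratio was 1.1997 (exact 95% interval 0.52 to 2.84, counting error only), so a difference within that interval was not detectable at this depth.

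Among the 16 tested goblet and secretory genes, which do not include the 10 markers, 5 rose, 1 fell and 10 did not pass (median log2 fold change 0.31, against 0.0072 over all tested genes). Of all tested genes 6.46% were called higher and 7.39% lower. SYTL2, a vesicle-docking gene, went up from 51.5 ± 5.37 to 83.3 ± 2.14 CPM (SD, n = 3 each; edgeR adjusted p = 0.00253), 0.69 on the log2 scale with an SE of 0.0959. BCAS1 rose from 4.42 ± 0.361 to 7.62 ± 0.249 CPM (log2 fold change 0.79), ERN2, which encodes the stress sensor IRE1-beta of mucus-secreting cells, from 46.8 ± 6.61 to 63.3 ± 2.80 CPM (0.44), and ST6GALNAC1, a sialyltransferase gene of mucin glycans, from 1.42 ± 0.421 to 2.76 ± 0.507 CPM (0.95). SCNN1A was the fifth riser of the list (log2 fold change 0.31, adjusted p = 0.0419 by edgeR), though it encodes a sodium channel subunit and not a secretory product. It lost its call with the replicate block and in 5 of the 6 fits that left out a library, all but that without control replicate 1. KLK6, a secreted protease gene, fell from 74.5 ± 14.3 to 44.3 ± 3.63 CPM (log2 fold change -0.75, adjusted p = 0.00802 by edgeR). The riser count dropped to 2 without control replicate 2, lncSLCC1 siRNA replicate 1 or lncSLCC1 siRNA replicate 2, and to 1 without lncSLCC1 siRNA replicate 3. In those fits 1.37% to 1.75% of all tested genes were called higher. SYTL2 was called in all 14 settings, BCAS1 in 13, KLK6 in 12, ERN2 in 10 and ST6GALNAC1 in 9.

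**Figure D4:**
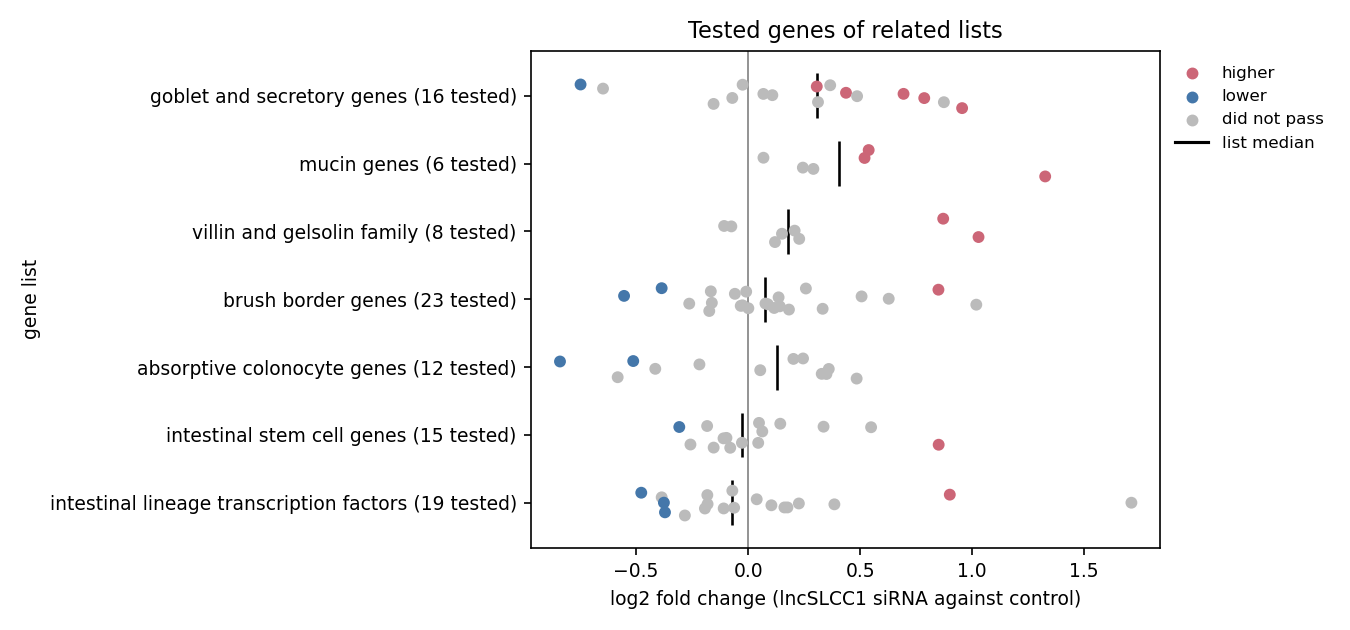
Log2 fold changes (lncSLCC1 siRNA against control siRNA) of every tested gene in 7 related lists; colours show the edgeR call and black lines the list medians. Goblet and secretory genes and mucin genes have medians of 0.31 and 0.41. The latter includes MUC4, which passed the filter only through lncSLCC1 siRNA libraries. Stem cell genes and lineage transcription factors have medians of -0.03 and -0.07, the former 0.03 with library totals and 0.05 with the replicate block and by limma-voom.

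Of 12 tested absorptive colonocyte genes, 0 rose, 2 fell and 10 did not pass (edgeR; median log2 fold change 0.13). Over all tested genes 6.46% were called higher and 7.39% lower. At an unadjusted p under 0.05, 4 of the 12 were higher and 4 lower, and DESeq2 and limma-voom also called 0 higher and 2 lower. CA2, a carbonic anhydrase gene, fell from 25.4 ± 0.614 to 14.2 ± 1.45 CPM (SD, n = 3 each; edgeR adjusted p = 0.00207), a log2 fold change of -0.84 with an SE of 0.112, and its call held in all 14 settings. SLC9A2, a sodium-proton exchanger gene, fell from 17.1 ± 2.15 to 11.98 ± 1.87 CPM (adjusted p = 0.0469) and lost its call in 7 of 14. With library totals 2 of the 12 were higher and 1 was lower, with GC content and length offsets 4 and 4, and without control replicate 1 the numbers were 3 and 3 of 13. In those settings 9.45%, 13.4% and 13.5% of all tested genes were called higher, and 5.39%, 16.8% and 15.5% lower. Of 23 tested brush border genes, which do not include VIL1, CDHR5 rose, EPS8L3 and EPS8L2 fell and 20 did not pass (median 0.08). EPS8L3, a gene for an actin-regulating adaptor, fell from 101.5 ± 11.96 to 69.2 ± 0.685 CPM (edgeR adjusted p = 0.00737 for a log2 fold change of -0.55). Its call was lost without lncSLCC1 siRNA replicate 2 or 3. That of EPS8L2 was lost without control replicate 2 and without each lncSLCC1 siRNA library. ESPN and MYO1A, which encode an actin bundler and the myosin of microvilli, stood at log2 fold changes of 1.02 and 0.63 with adjusted p-values of 0.0583 and 0.0625 by edgeR.

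Of 15 tested stem cell genes, EPHB2 was higher, RNF43 was lower and 13 did not pass. The shares of all tested genes were 6.46% called higher and 7.39% called lower. RNF43 lost its call without control replicate 2 and without each lncSLCC1 siRNA library, while EPHB2 was called in all 14 settings. EPHB2, an ephrin receptor gene of the crypt base, went up from 48.1 ± 6.87 to 86.8 ± 2.61 CPM (SD, n = 3 each; edgeR adjusted p = 0.00164), 0.85 on the log2 scale with an SE of 0.109. LGR5 and ASCL2 stood at log2 fold changes of -0.18 and 0.04 and did not pass. Of 19 tested lineage transcription factors, HNF4G rose (2.27 ± 0.343 to 4.25 ± 0.64 CPM, log2 fold change 0.90, adjusted p = 0.0179 by edgeR), 3 fell and 15 did not pass. Among those that fell, HES1 fell by 0.48 and KLF4 fell by 0.37 on the log2 scale. HNF4G was called in 11 of the 14 settings, and HES1 and KLF4 in 10 each. HNF4A stood at 59.7 ± 4.08 and 66.8 ± 2.29 CPM and CDX2, the intestinal homeobox gene, at 202 ± 24.7 and 166 ± 5.84 CPM (adjusted p = 0.236 and 0.075 by edgeR).

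RefSeq promoter windows on GRCh38.p14, from 250 bases before to 50 after the annotated start, were searched for 7 of the 10 markers; VIL1, TFF3 and CDH17 were not searched. Letters of sites known for intestinal factors and of the TATA box were looked for on both strands. CAAAGTCCA, as in an HNF4 site, occurred in MUC13 alone of the 7 and in 0.384% of 35116 promoters. The HNF1 core GTTAAT occurred in MUC13 alone and in 6.88% of promoters. For GATA factors the letters were AGATAA, found in AGR2 and REG4 and in 10.3% of promoters. The CDX letters TTTATNG were found in REG4 alone and in 9.73% of promoters. TGTTTAC, as in a FOXA site, occurred in 0 of the 7 and in 3.42% of promoters. The TATA box letters TATAAA were found in CEACAM6 and REG4 and in 11.5% of promoters. The windows below show the matches in MUC13 and AGR2, which rose, and the CDX match in REG4, which did not pass the test. Each is given 5′ to 3′ on the gene's strand with the named match in capitals (on the opposite strand for both MUC13 matches). The GATA match of REG4 lies in the same window in lower case, and its TATA box match is not shown. The windows lie at chr3:124934783-124934812 and chr3:124934972-124935001 for MUC13, chr7:16805101-16805130 for AGR2 and chr1:119811554-119811583 for REG4, all on the minus strand.
MUC13 HNF4 letters: aattaatgacTGGACTTTGtacccgaaaga
MUC13 HNF1 letters: aagagATTAACcaaactcatgtgccaccaa
AGR2 GATA letters: ttaacccagggaAGATAAtcacttggggaa
REG4 CDX letters: tagataagactTTTATGGatggattgtttt
The HNF4 match begins 51 bases before the MUC13 start and the CDX match 112 bases before that of REG4. A match is a description of the letters, and binding was not measured.

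Many other genes shared the profiles of the 3 markers that rose. Over the 6 libraries, 187 of 10751 other genes with a mean of at least 5 CPM had a Pearson correlation of log2(CPM + 1) above 0.95 with VIL1, 306 with AGR2 and 226 with MUC13. Candidates did not include genes with a clone name for a symbol. The 6 libraries form 2 groups, so any gene with a clear difference between them scores high. The closest to VIL1 were CUL7 (r = 0.995), TMEM164 (0.994) and ZNF18 (0.994), those to AGR2 MYO15B (0.999), CRYL1 (0.998) and C1QTNF6 (0.996), and those to MUC13 SLC25A20 (0.997), LINC00174 (0.997) and MROH3P (0.996).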

How the data were processed

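For each of the 6 libraries the authors deposited raw counts of reads, 1 line per gene symbol. TopHat2 version 2.0.11, HTSeq and the builds hg19 and GRCh37 are named in the submitters' processing notes; annotation release and strand setting were not given there. HTSeq's summary lines were left out: 5.42% to 7.58% of reads and alignments had no feature, 8.83% to 10.1% were ambiguous and 12.8% to 13.8% were not unique, so reads shared by overlapping genes or near-identical copies are incompletely counted.

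Groups came from the sample titles. Testing used edgeR 4.0.16 in R 4.3.3, by its quasi-likelihood test, with TMM library sizes, the default low-count filter (about 0.664 CPM in at least 3 libraries), no covariate and Benjamini-Hochberg adjustment over all 15242 tested genes. All 7 tested markers had at least 16 reads in every library. CPM used TMM library sizes. Each standard error is the fold change divided by the root of its F statistic. Results were recomputed in 14 ways: size factors of DESeq2, library totals, no filter or a mean of 1 CPM, a replicate block, DESeq2 1.42.0 itself, limma-voom (limma 3.58.1), GC content and length offsets (GENCODE 29, natural splines with 5 degrees of freedom), and each library left out. The fits were tested on simulated counts. Named genes were the 10 markers, up to 5 genes with the smallest p per list (all where 6 or fewer were tested), RP11-400N13.2 and the 3 closest profiles of each marker called, passing over clone names. SCNN1A, LGR5, ASCL2, HNF4A, CDX2, USP37 and genes with few or no reads were named outside this rule, after their values were seen. Not every gene it selects is reported here. Markers and lists were chosen with earlier results of these data known.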

Additional observations from a re-analysis of the deposited data

How the results depend on the processing

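VIL1, MUC13 and AGR2 were higher in every setting that kept all 6 libraries, and RP11-400N13.2 was called lower in all 14. The number of markers called higher was 3 over all libraries and 1 to 6 when 1 library was left out. In those fits 1.37% to 13.5% of all genes were called higher. The 6 came without control replicate 1 and include CEACAM6, which passed the filter there only through lncSLCC1 siRNA libraries. The 1 (VIL1) came without lncSLCC1 siRNA replicate 1 or 3. No marker was called lower in any setting. Over all genes, 984 were higher and 1126 lower; the numbers were 213 to 2112 and 244 to 2431 with 1 library left out, 2046 and 2565 with GC content and length offsets, and 1600 higher with no low-count filter. The cause was not tested. The fold change of REG4 turned to 0.059 with library totals, 0.0045 by limma-voom and 0.014 with GC content and length offsets, and was -0.16 to 0.091 with 1 library left out. The replicate block changed no marker's call (VIL1, MUC13 and AGR2 at adjusted p = 0.00409, 0.015 and 0.0131 by edgeR) and gave 993 higher and 1059 lower genes. Deviations from the group means had r = 0.131, -0.0066 and -0.0043 between same-numbered libraries. The highest value, 0.139, was between control replicate 3 and lncSLCC1 siRNA replicate 2. With so few libraries per group, these values cannot tell whether the numbers pair the samples. Depth limits CEACAM5, CEACAM6 and GPA33, at 1 to 15 reads per library.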

Other observations

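Genes of other intestinal epithelial types were mostly too scarce to test. Of 11 enteroendocrine markers 3 were tested, and SCG5, a neuroendocrine chaperone gene, went up from 4.89 ± 0.361 to 7.36 ± 0.726 CPM (SD, n = 3 each; edgeR adjusted p = 0.0288). SYP and TPH1 stood at log2 fold changes of 0.25 and 0.36 and did not pass. Over all tested genes 6.46% were called higher. The SCG5 call was lost without control replicate 2 and without each lncSLCC1 siRNA library. Of 7 tuft cell markers only AVIL and the ion channel gene TRPM5 were tested; TRPM5 stood at 0.573 ± 0.295 and 1.17 ± 0.153 CPM (edgeR adjusted p = 0.0963). None of 6 Paneth cell markers had enough reads to be tested.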
